A study of Homo sapiens with 6 samples.

Results

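Cancer-testis antigen families were examined in 2 stably transfected derivatives of SKOV3.ip1, a human ovarian carcinoma line. The members were all probe sets of the array whose annotated gene symbols all began with MAGEA, MAGEB, MAGEC, GAGE, PAGE, XAGE, SPANX, SSX and a digit, or CTAG. They numbered 68 of 54613 non-control probe sets, for 65 of 21357 annotated genes. Of these, 43 were annotated to 1 gene each and 25 were shared by several genes. The rule also took in 6 probe sets of SSX2IP, which encodes a partner protein of SSX2, and 4 of the CTAGE genes. The CTAGE names begin with CTAG, but these genes were not counted with the CTAG genes. SSX2IP and CTAGE are described apart, and whether any CTAGE gene is testis-restricted was not examined. The other 58 probe sets belonged to 9 families and were annotated to 58 genes in all.

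The S116D line carried a vector for phosphomimetic PEA-15, with aspartic acid in place of serine. The S116A line carried a vector for PEA-15 with alanine at the serine that names it, which cannot be phosphorylated there. PEA-15 is a small adaptor protein that binds ERK and FADD. The labels disagree on whether the S116D form has a second serine replaced, and on how its residue is numbered. Total RNA of each line was hybridised to 3 Affymetrix HGU133 Plus arrays, all from cells grown in the same DMEM/F12 medium with serum. The labels do not say whether the arrays came from separate cultures, whether a line is a clone or a pool, or how the vectors were driven. The spread behind the p-values is therefore that among 3 arrays a line and may be technical in origin. No untransfected or empty-vector array was analysed here. All differences are S116D minus S116A on the log2 scale.

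Cancer-testis genes are normally transcribed in male germ cells, in part in placenta, and silent in other adult tissues. Most of the families named here lie on the X chromosome as clusters of recent duplicates. In somatic cells their promoters are known to be kept silent by DNA methylation and repressive chromatin, and tumours can switch single families on again. Their proteins are studied as tumour antigens because the immune system rarely meets them elsewhere.

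The arrays were closely alike, with median log2 signals between 7.86 and 7.89. Over all probe sets, r was 0.995 to 0.998 for pairs of arrays within a line and 0.987 to 0.990 for pairs across lines. A second principal component, with 20.3% of the variance, set S116D 1, S116A 1 and S116A 2 apart from S116D 2, S116D 3 and S116A 3, which matches no label. Of the carcinoma markers, PAX8, the Müllerian lineage factor, read 12.82 ± 0.06 in S116D and 12.77 ± 0.12 in S116A (SD, n = 3 each). EPCAM, an epithelial surface protein, read 12.34 ± 0.16 in S116D and 13.25 ± 0.39 in S116A. MUC16 lay near the lower quartile of the arrays, at 6.59 ± 0.04 in S116D and 6.72 ± 0.06 in S116A. Of 11 carcinoma markers, each read on its brightest own probe set, 5 were called lower in S116D, against 4.82% of all 19775 genes. They were EPCAM and the keratins KRT7, KRT8, KRT18 and KRT19. KRT7 was called lower on 2 of its 4 probe sets and KRT19 on 1 of 2. The part of these markers in the differences of the members was not tested. None of 4 leukocyte, 3 endothelial and 5 fibroblast markers was called by limma, and 1, a fibroblast marker, had an unadjusted p under 0.05. The transfected gene PEA15 was not called on either of its 2 probe sets, at 12.55 ± 0.12 in S116D and 12.61 ± 0.10 in S116A on the brighter.

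Of the 5 SPANX probe sets 4 passed the test between the lines, and no probe set of the 8 other families did. Of the 68 members, 4 were called higher in S116D at an adjusted p under 0.05 (limma, Benjamini-Hochberg over all 54613 probe sets), and all 4 were SPANX probe sets. None was called lower, and 8 of 68 had an unadjusted p under 0.05 in either direction, against 19.7% of all probe sets. Across all 54613, 8.55% of probe sets were called, 4.36% higher and 4.19% lower. Whether the members were called more or less often than other probe sets was not tested. The median difference of the 68 members was 0.02, against 0.00 over all probe sets. The 4 called SPANX probe sets were 3.21-fold to 9.37-fold higher in S116D, while the differences of the 64 members that were not called ran from -0.13 to 0.27. Signal in a bulk sample does not tell more expressing cells from more RNA per cell.

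**Figure D1:**
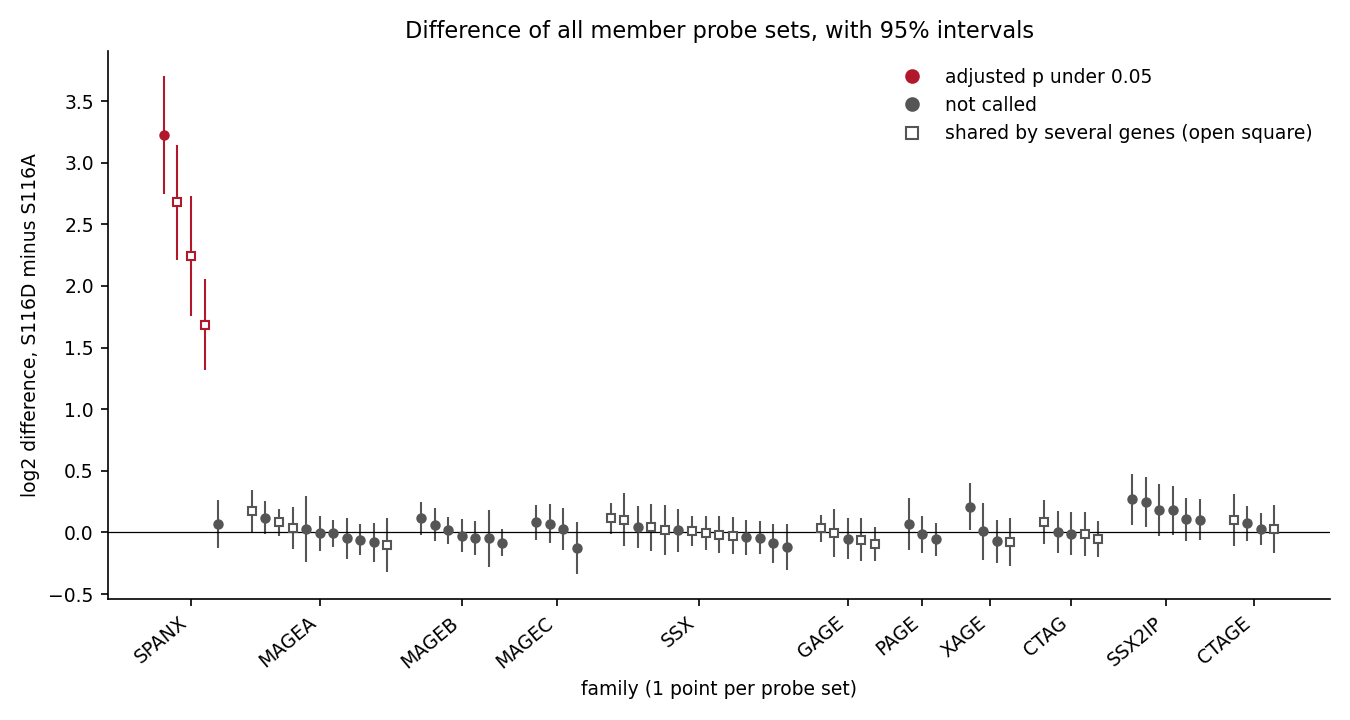
Log2 difference (S116D minus S116A) of each of the 68 member probe sets, ordered by family, with limma's 95% intervals. Filled circles are probe sets of 1 gene, open squares are shared by several genes, and red marks an adjusted p under 0.05. The 4 red SPANX points lie between 1.68 and 3.23, and all others lie between -0.13 and 0.27.

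SPANX proteins (sperm protein associated with the nucleus on the X chromosome) are made in spermatids after meiosis and locate to the nuclear envelope of sperm. The family holds near-identical copies, SPANXA1, SPANXA2, SPANXB1, SPANXC and SPANXD, and the more distant SPANXN genes. The DNA just before the starts of the copies is shown because it shows how alike the genes behind the called probe sets are. The sequences are the 250 bases upstream of each start from RefSeq (GRCh38.p14), written 5′ to 3′ on the gene's strand. They lie at chrX:141002344-141002593 on the plus strand for SPANXB1, and on the minus strand at chrX:141242518-141242767 for SPANXC and chrX:141584739-141584988 for SPANXA1. Capitals mark the motifs CCAAT and TGACGT, searched on both strands, so that CCAAT on the other strand reads ATTGG; they do not overlap each other.
SPANXB1: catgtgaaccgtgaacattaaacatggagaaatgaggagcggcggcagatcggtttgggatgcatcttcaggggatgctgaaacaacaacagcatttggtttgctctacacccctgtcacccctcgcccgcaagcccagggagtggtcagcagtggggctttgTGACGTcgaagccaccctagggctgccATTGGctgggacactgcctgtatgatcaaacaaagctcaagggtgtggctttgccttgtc
SPANXC: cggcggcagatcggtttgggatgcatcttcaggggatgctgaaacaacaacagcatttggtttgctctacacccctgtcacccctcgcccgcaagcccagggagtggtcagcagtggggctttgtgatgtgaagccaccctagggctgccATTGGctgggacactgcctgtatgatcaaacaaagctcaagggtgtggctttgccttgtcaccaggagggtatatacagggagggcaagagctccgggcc
SPANXA1: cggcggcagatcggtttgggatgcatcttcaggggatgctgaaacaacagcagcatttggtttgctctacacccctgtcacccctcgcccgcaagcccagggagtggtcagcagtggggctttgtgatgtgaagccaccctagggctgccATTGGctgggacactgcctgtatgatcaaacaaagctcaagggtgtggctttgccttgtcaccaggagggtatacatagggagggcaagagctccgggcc

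The SPANXA2 window, taken over 300 bases that run past the start, was identical to that of SPANXA1. The SPANXC window matched SPANXA1 at 295 of 300 aligned positions (98.3%), and the SPANXB1 window at 255 of 261 aligned positions (97.7%) with its annotated start set further upstream. Only 27 positions of the SPANXD window aligned, and the reason was not examined. The windows of the SPANXN genes in the table matched SPANXA1 at 87.8% to 94.3% of aligned positions. No probe set was annotated to SPANXD or to a SPANXN gene. Each of the 250-base windows of SPANXA1, SPANXA2, SPANXB1 and SPANXC held 1 CCAAT motif, which 32% of all 35116 RefSeq promoter windows hold. The motif was not particular to SPANX, since all 8 SSX windows in the table held it too. TGACGT stood in SPANXB1 and not in the windows of SPANXA1, SPANXA2 and SPANXC, and in 7.10% of all windows. It was not particular to SPANXB1 among the members either, since 42.1% of the 19 MAGEA windows held it. The windows held few CpG dinucleotides, 8 in SPANXB1 and 6 each in SPANXC, SPANXA1 and SPANXA2, against a median of 11 over all promoters. All 9 SPANX windows, those of SPANXD and the SPANXN genes included, had a median of 4. Other medians were 5 in MAGEB, 6 in MAGEC, 7 in SSX, 8 in GAGE, 8.5 in XAGE, 9 in PAGE and 11 in MAGEA. Of the 65 annotated member genes, 54 had a window in this table.

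SPANXB1 had a probe set of its own (220921_at). It read 9.13, 9.64 and 9.89 on the 3 S116D arrays, against 5.995, 6.34 and 6.63 on the 3 S116A arrays. The lowest S116D array lay 2.49 above the highest S116A array, a gap wider than the spread of either line. The S116A values lay near or below the lower quartile of those arrays (6.62 to 6.65), so the gene stood in the dim range in S116A and above the upper quartile (9.34 to 9.38 in S116D) on 2 of 3 S116D arrays. The difference was 3.23 ± 0.21 (SE; 95% interval 2.75 to 3.71), or 9.37-fold (limma adjusted p = 8.0e-05). It ranked 8 among the rises of all 54613 probe sets. No detection call was part of the table, and a fold that starts at a dim signal is not exact.

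The remaining called SPANX probe sets were shared and could not be assigned to 1 copy. The set annotated to SPANXA1, SPANXA2, SPANXB1 and SPANXC (220922_s_at) read 12.39, 12.85 and 13.07 in S116D, against 9.92, 9.87 and 10.48 in S116A. Its difference was 2.68 ± 0.20 (SE; 95% interval 2.21 to 3.14), or 6.40-fold (limma adjusted p = 1.7e-04). The lines lay 1.91 apart at their nearest arrays. The set for SPANXA1 and SPANXA2 (224032_x_at) read 10.56, 11.07 and 11.40 in S116D, against 8.47, 8.81 and 9.02 in S116A. It differed by 2.25 ± 0.21 (SE; 95% interval 1.76 to 2.73), or 4.74-fold (limma adjusted p = 5.4e-04). The set for SPANXA1, SPANXA2 and SPANXC (220217_x_at) read 11.07, 11.31 and 11.63 in S116D, against 9.45, 9.61 and 9.90 in S116A. This was the smallest of the 4 differences, at 1.68 ± 0.16 (SE; 95% interval 1.32 to 2.05), or 3.21-fold (limma adjusted p = 5.7e-04).

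All 4 probe sets placed every S116D array above every S116A array, as did 12.5% of all probe sets. The interval of SPANXB1 (2.75 to 3.71) did not overlap that of the set that excludes SPANXB1 but includes SPANXC (1.32 to 2.05); the difference between these differences was not tested. The last 2 sets are not annotated to SPANXB1, but probe sets of the x type are those whose probes can also bind related transcripts. Whether SPANXA1, SPANXA2 and SPANXC rose themselves, or their probes read SPANXB1, cannot be told apart here. Because the 4 sets read overlapping transcripts, they are not 4 independent readings. The fifth SPANX member, for the long non-coding RNA SPANXA2-OT1, read 6.80, 7.13 and 6.93 in S116D, against 6.87, 6.94 and 6.85 in S116A. It differed by 0.07 (95% interval -0.13 to 0.26) and the lines overlapped.

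The 4 sets shared their pattern between arrays of a line. S116D 1 was the lowest S116D array on each of them and S116A 3 the highest S116A array. These arrays lie in different sets along the second principal component. SPANXB1 read 9.13 on S116D 1 against a mean of 6.17 on S116A 1 and S116A 2, a difference of 2.96. Its mean was 9.76 on S116D 2 and S116D 3 against 6.63 on S116A 3, a difference of 3.13. The shared sets differed by 1.54 to 2.49 within the first of these sets of arrays and by 1.57 to 2.48 within the second. Every S116D array lay above every S116A array on all 4 probe sets. Any division of the arrays therefore gives a positive difference, and these values describe the arrays and test nothing. Leaving out any 1 array kept all 4 calls, with SPANXB1 between 3.06 and 3.44.

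**Figure D2:**
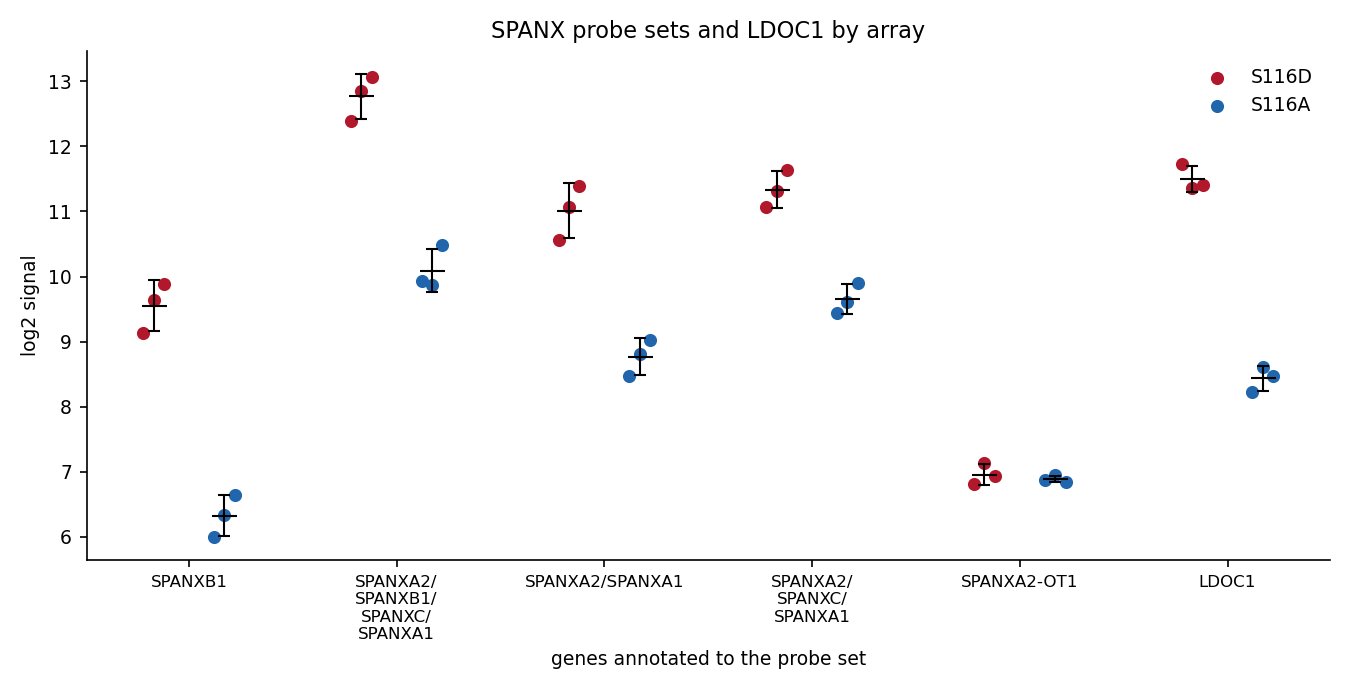
Log2 signal of the 5 SPANX probe sets and of LDOC1 on each array, S116D in red left of S116A in blue, with the mean and SD over 3 arrays in black. Labels on the horizontal axis give the genes annotated to each probe set. The lines are apart on the 4 called SPANX sets and on LDOC1 and overlap on SPANXA2-OT1.

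SPANXB1, SPANXC, SPANXA1 and SPANXA2 lie in 1 stretch of the long arm of the X chromosome. Their neighbours were read in the gene order of RefSeq. LDOC1, a gene derived from a retrotransposon that encodes a small leucine zipper protein, is the next protein-coding gene after SPANXB1 and is followed by SPANXC. LDOC1 read 11.72, 11.36 and 11.41 in S116D, against 8.23, 8.61 and 8.48 in S116A. It was 3.06 ± 0.13 higher in S116D (SE; 95% interval 2.76 to 3.36), or 8.34-fold (limma adjusted p = 9.5e-06), rank 10 among the rises. Unlike the SPANX sets, LDOC1 was highest among S116D arrays on S116D 1. Its promoter window held 29 CpG dinucleotides and no CCAAT or TGACGT, and aligned with that of SPANXA1 over only 41 positions.

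The other measured protein-coding neighbours were not called, and their lines overlapped. SOX3, a transcription factor gene and the nearest one before SPANXB1, read 6.89, 6.66 and 6.73 in S116D, against 6.91, 6.70 and 6.79 in S116A. It differed by -0.04 (95% interval -0.22 to 0.15). HAPSTR2 differed by 0.05 (95% interval -0.13 to 0.23) and MCF2, a guanine nucleotide exchange factor gene, by -0.07 (95% interval -0.21 to 0.07). Past SPANXD the next genes are MAGEC3, MAGEC1 and MAGEC2, themselves members, whose intervals lay between -0.34 and 0.23.

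**Figure D3:**
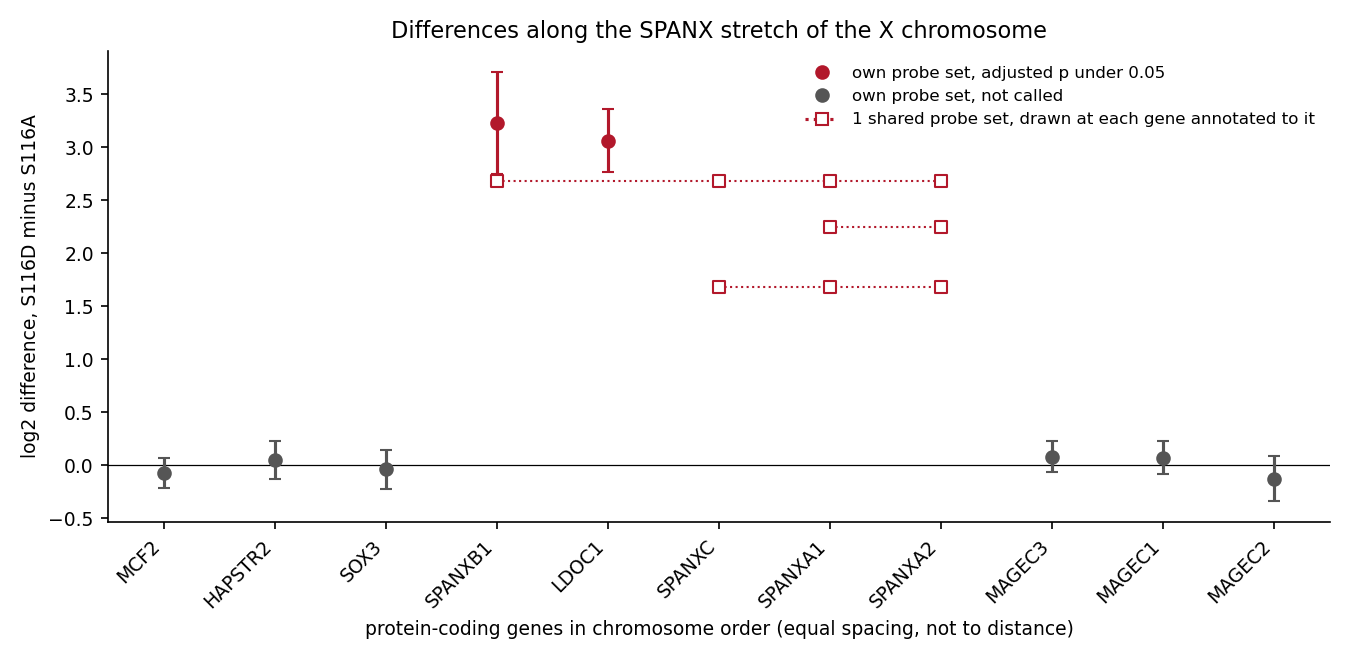
Log2 difference (S116D minus S116A) of the plotted protein-coding genes from MCF2 to MAGEC2, those with an own or shared member probe set, in their order on the X chromosome at equal spacing, with 95% intervals where a gene has its own probe set. Open squares repeat 1 shared probe set at each gene annotated to it. Of the genes with an own probe set, SPANXB1 and LDOC1 alone were called. The called shared sets are drawn at SPANXB1, SPANXC, SPANXA1 and SPANXA2, and which of these genes rose cannot be told from them. The plotted genes on both sides lie within 0.13 of 0.

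The MAGEA family, whose proteins bind RING-type ubiquitin ligases such as TRIM28 and alter their targets, gave no call on 11 probe sets for 12 genes. Differences ran from -0.10 to 0.18, and 1 of 11 had an unadjusted p under 0.05, against 19.7% of all probe sets. The set with the highest mean, shared by MAGEA9 and MAGEA9B, read 8.19, 8.02 and 8.14 in S116D, against 8.01, 8.08 and 8.15 in S116A. The lines overlapped there, with a difference of 0.04 (95% interval -0.13 to 0.21). The smallest p belonged to a set shared by MAGEA2 and MAGEA2B, at 5.44, 5.56 and 5.34 in S116D, against 5.18, 5.24 and 5.39 in S116A. It differed by 0.18 (limma adjusted p = 0.23), and 1 S116A array lay above the lowest S116D array. Shared sets were 4 of the 11, among them 1 for MAGEA3 and MAGEA6. All but 1 of the 11 had a mean below the median signal of the table, 7.89.

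MAGEB genes, a related cluster on the short arm of the X chromosome, had 7 probe sets for 6 genes, none shared and none called. Their differences ran from -0.08 to 0.12. MAGEB4 held both the highest mean and the smallest p, on different probe sets. The first read 7.085, 7.19 and 7.19 in S116D, against 7.05, 7.11 and 7.11 in S116A, a difference of 0.06 (95% interval -0.07 to 0.19). The second differed by 0.12 (limma adjusted p = 0.35). MAGEC genes had 4 probe sets for 3 genes, with differences from -0.13 to 0.08. MAGEC1 read 7.62, 7.77 and 7.77 in S116D, against 7.64, 7.60 and 7.70 in S116A. MAGEC2, which also binds TRIM28, read 7.26, 7.37 and 7.34 in S116D, against 7.64, 7.43 and 7.29 in S116A on the set with the smallest p. It differed by -0.13 (95% interval -0.34 to 0.08; limma adjusted p = 0.56).

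SSX genes encode transcriptional repressors that are fused to SS18 in synovial sarcoma. They had 14 probe sets for 8 genes, 8 of them shared, and none was called. Differences ran from -0.12 to 0.11. The set with the highest mean, shared by SSX4 and SSX4B, read 8.805, 8.93 and 8.84 in S116D, against 8.78, 8.94 and 8.72 in S116A. A set shared by SSX2 and SSX2B had the smallest p and did not overlap between lines, at 7.19, 7.26 and 7.18 in S116D, against 7.08, 7.08 and 7.125 in S116A. Its difference was small, at 0.11 (95% interval -0.01 to 0.24; limma adjusted p = 0.32).

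GAGE genes form a long tandem array of near-identical copies, and 4 of their 5 probe sets were shared by 5 to 13 genes. None was called, and differences ran from -0.09 to 0.03. The set with the highest mean, shared by 12 genes, read 8.56, 8.58 and 8.56 in S116D, against 8.55, 8.44 and 8.72 in S116A, a difference of 0.00 (95% interval -0.20 to 0.19). The set with the smallest p, shared by 10 genes, differed by -0.09 (limma adjusted p = 0.48). PAGE genes had 3 probe sets, 1 each for PAGE1, PAGE4 and PAGE5. PAGE4, a disordered protein known from prostate, read 8.10, 8.35 and 8.31 in S116D, against 8.07, 8.19 and 8.29 in S116A. It differed by 0.07 (95% interval -0.14 to 0.28). PAGE5 had the smallest p of the 3 and differed by -0.06 (95% interval -0.19 to 0.08).

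XAGE genes had 4 probe sets and no call. The set for XAGE-4 had both the highest mean and the smallest p of the family. It read 9.39, 9.47 and 9.39 in S116D, against 9.08, 9.23 and 9.31 in S116A, so the lines did not overlap. The difference of 0.21 (95% interval 0.02 to 0.40) had a limma adjusted p of 0.21. XAGE2, XAGE3 and the set shared by XAGE1A and XAGE1B differed by -0.08 to 0.01. CTAG genes include CTAG1B, which encodes the antigen NY-ESO-1, and had 5 probe sets, 3 of them shared by CTAG1A and CTAG1B. CTAG2 read 7.08, 7.14 and 6.89 in S116D, against 7.07, 6.97 and 7.11 in S116A. The shared set with the smallest p read 6.60, 6.34 and 6.33 in S116D, against 6.38, 6.36 and 6.28 in S116A, a difference of 0.09 (95% interval -0.10 to 0.27).

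For these 53 probe sets of the 8 families other than SPANX, the intervals bounded the change. Every one of the 53 intervals lay between -0.34 and 0.40, and 40 of 53 lay within 0.25 of 0. A difference of 0.5 on this scale in either direction was thus outside all 53 intervals. Of the 53, 44 had means below the median signal, and log2 summaries compress differences of dim probe sets, so the intervals hold for the deposited values. At or below that median 3.50% of all probe sets were called. Between arrays of a line these probe sets varied little, with a median SD of 0.07. Of the 53, 2 had an unadjusted p under 0.05, against 19.7% of all probe sets. Lines did not overlap on 4 of the 53, 3 with S116D above (MAGEA1, XAGE-4 and the SSX2 set) and 1 with S116D below (MAGEB18), against 24.0% of all probe sets.

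Among the groups described apart, SSX2IP encodes a centrosome and junction protein that is not testis-restricted. All 6 of its probe sets read higher on average in S116D, by 0.10 to 0.27, but none was called. On 4 of 6 every S116D array lay above every S116A array, as it did on 12.5% of all probe sets. The set with the smallest p read 10.44, 10.36 and 10.63 in S116D, against 10.22, 10.15 and 10.24 in S116A. It differed by 0.27 (95% interval 0.06 to 0.48; limma adjusted p = 0.12). The sets read 1 gene and are not independent. CTAGE genes, related to a family of endoplasmic reticulum export proteins, had 4 probe sets that differed by 0.03 to 0.10, none of them called. The shared set with the highest mean read 10.06, 10.06 and 10.01 in S116D, against 9.99, 10.15 and 9.91 in S116A.

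Cancer-testis genes outside these families were read on the brightest probe set annotated to each gene alone. Of 57 measured genes, 1 was called higher, 2 were called lower and 54 were not called, against 11.0% of all 19775 genes called. The median difference was -0.02. ZNF165, a zinc finger gene of testis, read 7.50, 7.52 and 7.36 in S116D, against 8.38, 8.43 and 7.79 in S116A, a difference of -0.74 ± 0.16 (SE; limma adjusted p = 0.021). ATAD2, a bromodomain protein of dividing cells, differed by -0.35 ± 0.07 (SE; limma adjusted p = 0.024) and was called on 1 of its 4 probe sets. CABYR, a calcium-binding protein of the sperm tail, differed by 0.35 ± 0.09 (SE; limma adjusted p = 0.043) on its brightest probe set, and its other probe set was called higher too. These 3 calls rest on few arrays. ZNF165 was lost without S116D 2, S116D 3, S116A 1 or S116A 2 (limma adjusted p up to 0.086). ATAD2 was lost without any array but S116A 2 (up to 0.11) and CABYR without any but S116D 1 (up to 0.16), and with quantile normalization or median centring.

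Germ cell markers outside these families gave 1 call by limma. Of 32 measured markers none rose, 1 fell and 31 did not pass, and the median difference was -0.02. Over all genes 4.82% were called lower. An unadjusted p under 0.05 was found for 4 of the 32, against 23.6% of all genes. Means of 21 of the 32 lay below the median signal of the table. The fall was that of SOX17, a factor of primordial germ cells that ovarian carcinoma cells also express. It read 11.44, 11.35 and 11.34 in S116D, against 12.06, 11.995 and 11.89 in S116A, a difference of -0.61 ± 0.08 (SE; limma adjusted p = 0.0022). Of the MAGE genes that are active in many tissues, 10 were measured and NSMCE3 alone was called, against 11.0% of all genes. NSMCE3, a subunit of the SMC5/6 complex, read 8.40, 8.18 and 8.34 in S116D, against 7.73, 7.53 and 7.42 in S116A, a difference of 0.75 ± 0.10 (SE; limma adjusted p = 0.0024). Of all 10, 5 had an unadjusted p under 0.05, against 23.6% of all genes, and their median difference was 0.22.

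Genes listed under DNA methylation and germline-gene repression were called in 6 of 42 cases on the brightest probe set of each. Of these, 1 was higher and 5 lower, and the median over the list was -0.09. The list was not made of repressors alone. It also held the transcription factors SP1, SP3, ETS1 and ETS2 and the TET enzymes, which remove DNA methylation. ETS2, an activator, was among the 5 lower. The probe sets of HELLS, a chromatin remodeller needed for DNA methylation, disagreed. Its brightest differed by 0.39 without a call (limma adjusted p = 0.16), and 3 of its 5 probe sets were called lower. Over all genes 6.13% were called higher and 4.82% lower. None of the 42 had a mean at or below the median signal of the table. There 3.50% of probe sets were called, against 8.55% of all probe sets. In the fit of only the 27306 probe sets above that median, 2190 were called higher and 2233 lower. Of the 42, that fit also called 1 higher and 5 lower. Whether the 42 were called more often than genes of like signal was not tested. ETS2, an ETS-family activator of the kind that binds MAGEA promoters, read 9.69, 9.97 and 9.88 in S116D, against 10.84, 10.60 and 11.09 in S116A. It differed by -0.997 ± 0.13 (SE; limma adjusted p = 0.0027), and kept its call without any 1 array. KDM1A, a histone H3K4 demethylase, read 11.82, 11.72 and 11.78 in S116D, against 12.79, 12.66 and 12.08 in S116A, a difference of -0.74 ± 0.16 (SE; limma adjusted p = 0.027). MORC2, a chromatin-compacting ATPase, differed by -0.39 and PCGF6, a subunit of the Polycomb complex PRC1.6 that represses germline genes, by -0.38. UHRF2 differed by -0.32. DNMT3B, a de novo DNA methyltransferase, was the rise, at 10.93, 10.36 and 10.41 in S116D, against 9.99, 9.97 and 9.53 in S116A, a difference of 0.74 ± 0.18 (SE; limma adjusted p = 0.037). HELLS, UHRF2 and DNMT3B were named after their values were seen.

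Of these 6, all but ETS2 lost their calls when single arrays were left out. DNMT3B lost it without each of the 6 arrays (limma adjusted p 0.054 to 0.078). KDM1A and MORC2 lost theirs without S116D 2, S116D 3, S116A 1 or S116A 2 (up to 0.11 and 0.12). PCGF6 kept its call only without S116A 2 and UHRF2 only without S116D 1 (otherwise up to 0.11 and 0.18), and UHRF2 was not called after quantile normalization. What part any of these genes has in the SPANX difference was not tested.

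**Figure D4:**
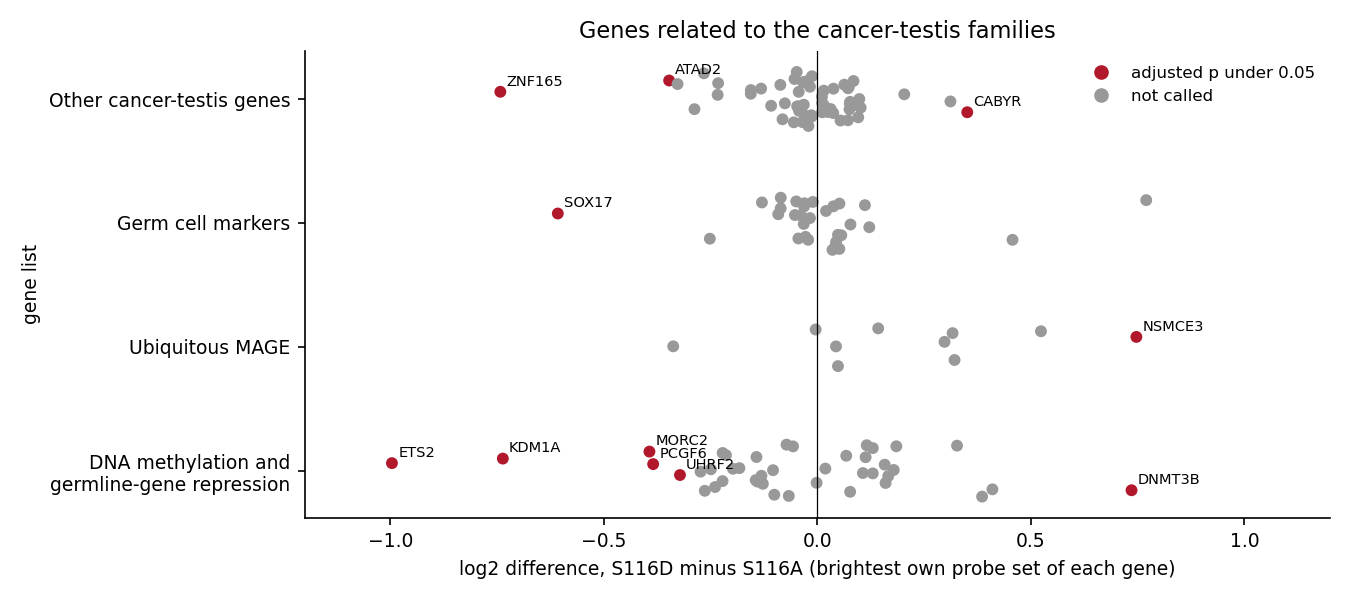
Log2 difference (S116D minus S116A) of each gene in 4 related lists, 1 point per gene on its brightest own probe set, spread vertically for legibility. Red points with names have an adjusted p under 0.05. They run from -0.997 for ETS2 to 0.75 for NSMCE3, short of the SPANX differences.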

How the data were processed

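Expression was measured on 6 arrays, 3 per line, and groups were taken from the sample titles. The deposited table holds 1 value per probe set and array. MAS5 and RMA are listed, per the submitters' processing notes, with no role or version; filters and background correction are not stated. The authors' deposited numbers were read as log2 signal, since they run from 4.34 to 15.3 and the quartiles of the arrays nearly coincide. Precision is limited by the number of arrays.

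After removing 62 control probe sets, 54613 were fitted with limma 3.58.1 in R 4.3.3 (lmFit, eBayes with an intensity trend, no covariates; threshold 0.05 after Benjamini-Hochberg over all of them). SE and 95% intervals are limma's, SDs are over arrays, and folds are antilogs of the differences. An exact permutation test of 3 against 3 arrays cannot go below 0.1. Symbols come from GEO's platform annotation, updated through gene identifiers where RefSeq holds them (41037 of 41091 probe sets with 1 gene); 1801 have several genes and 11721 are unnamed here.

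Named were all called members, in each family without a call the members with the highest mean and the smallest p, up to 4 called genes per related list, and the measured protein-coding genes among the 5 nearest on each side of SPANXB1. Members, lists and rules were chosen with earlier results of these data known. On simulated data with the spread of all tested probe sets, the fit called 38% of the probe sets shifted by 0.5 log2, 82% at 1, 100% at 2 and 88% at -1. The shifted probe sets were few and drawn from the whole array. In the real data many more were called, so these shares do not give the power for the members. Alternatives were quantile normalization, median centring, a signal filter, no trend, array weights, replicate blocks, gene means and leaving out arrays; the 2 sets of arrays as a block was added after seeing the data.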

Additional observations from a re-analysis of the deposited data

How the results depend on the processing

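The 4 SPANX calls, and no call of any other member, were found under all 13 alternative fits of the probe sets, SPANXB1 at 3.04 to 3.44 and LDOC1 at 2.95 to 3.15. The called member genes, 1 higher and 0 lower, were also the same on gene means. Pseudocounts had been planned for linear values and did not apply to log2 data. With probe sets above the median signal only, 21 members remained and their median difference was 0.10; other cancer-testis genes called lower then numbered 1, and ubiquitous MAGE genes 3 higher and 1 lower. Other cancer-testis genes called higher fell to 0 with quantile normalization and with median centring, and ubiquitous MAGE genes called higher were 2 with quantile normalization. Without the trend, ubiquitous MAGE genes were 2 higher and 1 lower. With array weights, calls were 2 higher and 4 lower for other cancer-testis genes, 3 and 1 for ubiquitous MAGE genes, 3 higher for methylation and repression genes, and 1 and 2 for germ cell markers. With the replicate number as a block, whole-table calls were 3580 higher and 3760 lower (2382 and 2290 without), other cancer-testis genes 2 and 5, ubiquitous MAGE genes 3 and 1, methylation and repression genes 3 higher, and germ cell markers 1 higher. Deviations of same-numbered arrays correlated at 0.45, -0.04 and 0.44, so the numbers were not taken as pairs. Blocking on the 2 sets of arrays, added after seeing the data, these were 4080 and 4019, 3 and 6, 5 and 1, 2 higher, and 1 higher. Leaving out 1 array gave 1429 to 2334 higher and 1177 to 2429 lower in the whole table, 0 to 2 in either direction for other cancer-testis genes, 1 to 2 higher and 0 to 1 lower for ubiquitous MAGE genes, 0 to 2 higher and 1 to 4 lower for methylation and repression genes, and 0 to 1 higher and 1 lower for germ cell markers. Causes were not tested. Signal over background could not be judged from this table.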
